A study of Mus musculus with 4 samples.

Results

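Genes of the enzymes that write, maintain, erase and read out repressive DNA and histone methylation were followed in activated CD8+ T cells after transfer into mice with or without a microbiota. The 10 genes were taken by name from the deposited count table of 24062 genes. They are the DNA methyltransferase genes Dnmt1 and Dnmt3a, the cofactor gene Uhrf1, the dioxygenase genes Tet1, Tet2 and Tet3, the Polycomb genes Ezh1, Ezh2 and Suz12, and the histone H3 lysine methyltransferase gene Suv39h1. All 10 had enough reads to be among the 11271 genes tested. The cells were gBT-I cells, whose transgenic T cell receptor recognises a herpes simplex virus glycoprotein B peptide (gB498-505). In all groups the splenocytes came from transgenic gBT-I SPF mice, were stimulated in culture with that peptide and LPS, and were given IL-1 on days 2 and 3. They went into the veins of C57BL/6 recipients on day 4. The recipients were either specific pathogen free (SPF, 2 libraries) or germ free (GF, 2 libraries), and gBT-I cells were sorted from the spleen on day 7 after transfer. Ages of the mice, and whether libraries came from separate mice or from pools, are not stated in the labels, so the p-values speak for the scatter among the libraries, which may be technical.

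DNA methylation is copied to the new strand after replication by DNMT1, which UHRF1 brings to half-methylated sites, while DNMT3A can methylate sites that carried no mark. TET enzymes oxidise the methyl group, which starts its removal. EZH1 and EZH2 are alternative catalytic subunits of Polycomb repressive complex PRC2, which methylates histone H3 at lysine 27 and needs SUZ12 for its assembly. SUV39H1 methylates histone H3 at lysine 9 in heterochromatin. In CD8+ T cells the methyltransferases among them are known for silencing genes of naive and memory cells as effector cells form, and TET2 for limiting clonal expansion.

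Several of these genes are also known targets of E2F, the transcription factor family of the G1 to S transition, and the printed promoter windows show where an E2F-type sequence lies. The sequence TTTNGCGC was searched on both strands (GCGCNAAA on the other) in RefSeq windows of GRCm38.p6 from 250 bases before to 50 bases after each annotated start. It was present in windows of 3 of the 10 genes, Uhrf1, Dnmt1 and Ezh2, and in 424 of all 27025 genes in the table (1.57%). In the windows below, each of 30 bases and read along the gene's strand, the capitals mark the match. A match describes letters only.

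Uhrf1, chr17:56304117-56304146, plus strand, match starting 185 bases before a start at 56304313: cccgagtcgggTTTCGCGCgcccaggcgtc
Dnmt1, chr9:20952824-20952853, minus strand, match starting 219 bases before a start at 20952623: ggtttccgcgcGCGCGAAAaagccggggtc
Dnmt1, chr9:20952574-20952603, minus strand, match starting at base 34 after the same start: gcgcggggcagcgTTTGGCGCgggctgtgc
Ezh2, chr6:47595009-47595038, minus strand, match starting at base 4 after a start at 47595030: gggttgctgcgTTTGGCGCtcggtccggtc

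None of the 10 genes passed the test between recipients, a quasi-likelihood F test in edgeR with Benjamini-Hochberg adjustment over all tested genes. The same test called 0% of the 11271 genes, and the adjusted p-values of the 10 lay between 0.86 and 0.92. At an unadjusted p under 0.05 it called 0 of the 10, beside 3.22% of all tested genes, and DESeq2 and the edgeR exact test, which called 0.0586% and 0.0799% of their genes, also called 0 of the 10. Mean values were higher in GF for 8 of the 10 and lower for 2, where 49.7% of all tested genes were higher in GF. The median log2 fold change of the 10, GF minus SPF, was 0.31, beside -0.00 over all tested genes. Both GF libraries lay above both SPF libraries for Dnmt3a, Uhrf1, Tet3 and Ezh2, and below them for Suz12 and Suv39h1. Over all tested genes 16.8% lay above and 16.4% below in this way.

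**Figure D1:**
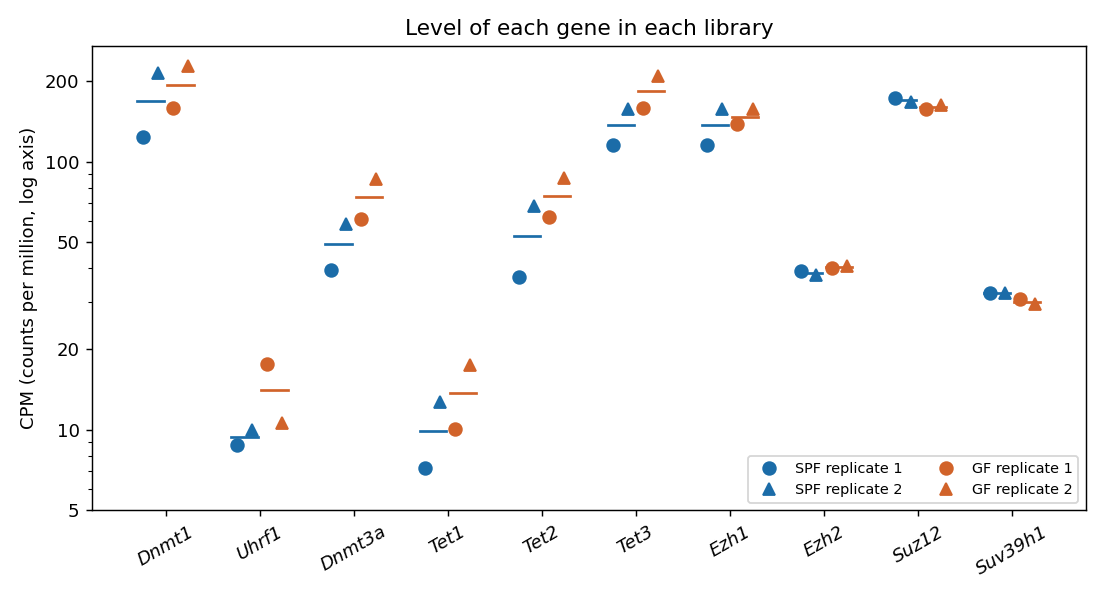
Level of each of the 10 genes in CPM (a gene's counts scaled to a common library size, log axis), with 1 point per library and a line at the mean of each group. Ezh2, Suz12 and Suv39h1 sit at nearly 1 level in all 4 libraries, the Tet genes, Dnmt1, Dnmt3a and Ezh1 are lowest in SPF replicate 1, and Uhrf1 is highest in GF replicate 1.

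Dnmt1, the maintenance methyltransferase, had the highest level per transcript length of the 3 DNA methylation genes. It measured 123.6 and 214.0 CPM (scaled by the TMM method) in SPF replicates 1 and 2, and 158.1 and 227.3 CPM in GF replicates 1 and 2. The libraries numbered 1 were the low ones in both groups, and the groups overlapped. The log2 fold change was 0.19 (SE 0.35), with a 95% interval from -0.69 to 1.07 and an adjusted p of 0.90 in edgeR. Its direction turned without SPF replicate 1 (-0.15) and without GF replicate 2 (-0.10). In GRCm38, the assembly that mm10 names, Dnmt1 spans bases 20907209 to 20959888 of chromosome 9, on the minus strand.

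Uhrf1, the cofactor that places DNMT1 at replicated DNA, measured 8.74 and 9.96 CPM in the SPF libraries and 17.6 and 10.6 CPM in the GF libraries. GF replicate 1 alone stood apart: its exact Poisson 95% interval of 15.5 to 19.8 CPM, which covers counting error only, lay above the upper limits of the other libraries, of which the highest was 12.4 CPM in GF replicate 2. The counts behind these values were 100, 141, 257 and 148. The log2 fold change was 0.59 (SE 0.35, 95% interval -0.29 to 1.47, edgeR adjusted p = 0.86), and it was 0.18 without GF replicate 1. GF exceeded SPF by a log2 value of 0.99 between the libraries numbered 1 and by 0.09 between those numbered 2. The summed level of 15 mitotic genes, among which Top2a was the most abundant, was also highest in GF replicate 1, at 185.4 CPM, beside 135.5 CPM in GF replicate 2 and 55.8 and 79.2 CPM in the SPF libraries. A list of 18 G1/S and replication genes, led by Pcna, summed to 1170.0 and 1111.1 CPM in SPF and 1135.8 and 1128.0 CPM in GF. The log2 fold changes of its genes ran from -0.46 to 1.12, so the sum does not stand for each gene. The part of either list in the Uhrf1 value was not tested. Uhrf1 spans bases 56303321 to 56323486 of chromosome 17, on the plus strand.

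Dnmt3a, the de novo methyltransferase, measured 39.6 and 58.6 CPM in SPF and 60.9 and 86.4 CPM in GF. Each GF library was above the SPF library of the same number, by log2 values of 0.62 and 0.56. The gap between the groups was narrow, since the counting intervals of SPF replicate 2 (54.7 to 62.8 CPM) and GF replicate 1 (56.9 to 65.0 CPM) overlapped. The log2 fold change was 0.58 (SE 0.30, 95% interval -0.18 to 1.35, edgeR adjusted p = 0.86), and it had the smallest unadjusted p of the 10 (0.11). It ranged from 0.31 without GF replicate 2 to 0.89 without SPF replicate 2. With the replicate number as a block, a pairing that no label states, edgeR called Dnmt3a (adjusted p = 0.022), where 10.7% of tested genes passed. The gene spans bases 3806007 to 3914443 of chromosome 12, on the plus strand, and 133 nt of its exons overlap the opposite-strand gene Dnmt3aos. The library kit, an Illumina TruSeq RNA kit of the type that does not mark strand, cannot tell such reads apart.

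All 3 Tet genes, whose products start DNA demethylation, were lowest in SPF replicate 1 and highest in GF replicate 2. Tet3, the highest of them per transcript length, measured 115.7 and 157.5 CPM in SPF and 158.5 and 208.4 CPM in GF. GF replicate 1 was above SPF replicate 2 by less than counting error, with intervals of 152.1 to 165.1 and 151.0 to 164.2 CPM. Tet2 measured 37.1 and 68.5 CPM in SPF and 62.4 and 87.0 CPM in GF. Tet1, the lowest of the 10 genes per transcript length, measured 7.16 and 12.6 CPM in SPF and 10.04 and 17.4 CPM in GF. For Tet1 and Tet2, GF replicate 1 fell between the SPF libraries, so the groups overlapped.

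Log2 fold changes of the Tet genes were alike in size, at 0.43 for Tet3 (SE 0.26), 0.50 for Tet2 (SE 0.36) and 0.47 for Tet1 (SE 0.43). Their 95% intervals ran from -0.24 to 1.09, from -0.42 to 1.41 and from -0.63 to 1.56, so each includes 0 and a log2 value above 1. The edgeR adjusted p was 0.86 for each. Within both replicate numbers all 3 were higher in GF, by log2 values of 0.48 and 0.46 for Tet1, 0.75 and 0.35 for Tet2 and 0.45 and 0.40 for Tet3. With each library's trend on transcript length removed, these differences were -0.08 and 0.11 for Tet1, 0.31 and 0.12 for Tet2 and -0.03 and 0.13 for Tet3, so those of Tet1 and Tet3 turned sign between the libraries numbered 1. Tet2 passed the edgeR test without SPF replicate 2 (log2 fold change 1.00, adjusted p = 0.027), a setting in which 11.5% of tested genes passed and SPF rests on a lone library, assumed to vary as the GF libraries do. Without SPF replicate 1 the Tet2 value was 0.13. Tet1 ranged from 0.015 without GF replicate 2 to 0.93 without SPF replicate 2, and Tet3 from 0.21 to 0.66 over the same settings. All 3 are on minus strands: Tet1 at bases 62804570 to 62908996 of chromosome 10, Tet2 at 133463679 to 133545139 of chromosome 3 and Tet3 at 83362373 to 83459084 of chromosome 6. Of Tet2 exons, 43 nt overlap an opposite-strand gene.

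**Figure D2:**
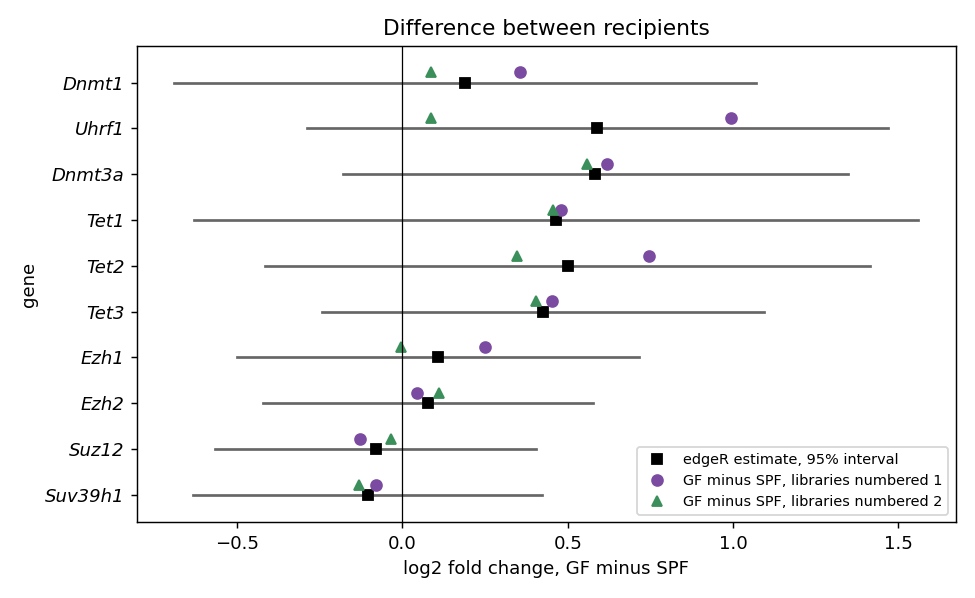
Log2 fold change of GF minus SPF for each gene by edgeR (squares, with 95% intervals), with the difference between libraries of the same number above it. All 10 intervals include 0, and for Uhrf1 the 2 within-number differences are 0.99 and 0.09.

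Among the repressive histone methylation genes, Ezh2, Suz12 and Suv39h1 had levels in CPM that hardly moved over the 4 libraries. Ezh2, the PRC2 catalytic subunit typical of dividing cells, measured 39.0 and 37.7 CPM in SPF and 40.2 and 40.6 CPM in GF, and each value lay within the counting interval of every other library. Its highest library was 1.08 times its lowest, a ratio smaller than in all but 1.23% of tested genes, where the median was 1.61. Suz12 measured 172.4 and 167.2 CPM in SPF and 157.8 and 163.3 CPM in GF (highest over lowest 1.09), and Suv39h1 32.4 and 32.2 CPM against 30.7 and 29.4 CPM (1.10). For Suz12, the intervals of the highest and the lowest library, 164.9 to 180.2 CPM in SPF replicate 1 and 151.4 to 164.4 CPM in GF replicate 1, did not overlap. With each library's trend on transcript length removed, Suz12 was less even. It then differed from SPF replicate 1 by log2 values of -0.29 in SPF replicate 2, -0.29 in GF replicate 1 and -0.39 in GF replicate 2.

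Fold changes between recipients were small for all 3 genes. The log2 value was 0.08 for Ezh2 (SE 0.20), -0.08 for Suz12 (SE 0.19) and -0.10 for Suv39h1 (SE 0.21), with edgeR adjusted p-values of 0.92, 0.92 and 0.90. The 95% intervals were -0.42 to 0.58 for Ezh2, -0.57 to 0.40 for Suz12 and -0.63 to 0.42 for Suv39h1. The intervals rest on a dispersion estimated across genes, and they do not show that the recipients are alike. Over the same 4 libraries the summed mitotic list ran from 55.8 to 185.4 CPM, and the G1/S and replication list from 1111.1 to 1170.0 CPM. A relation of either list to these 3 genes was not tested.

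Ezh2 spans bases 47530139 to 47595341 of chromosome 6 (minus strand), Suz12 bases 79993106 to 80034123 of chromosome 11 (plus strand), and Suv39h1 bases 8061171 to 8074760 of chromosome X (minus strand). Of the annotated exons of Suv39h1, 767 nt (14.6%) overlap the opposite-strand gene Gm14820, which has no row in the count table. The overlaps with opposite-strand genes were 178 nt for Suz12 and 174 nt for Ezh2.

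Ezh1, the PRC2 catalytic subunit that prevails in resting cells, varied more between libraries than Ezh2, with a highest over lowest of 1.36. It measured 115.7 and 157.3 CPM in SPF and 137.6 and 156.7 CPM in GF, with SPF replicate 1 lowest and the groups overlapping. The log2 fold change was 0.11 (SE 0.24, 95% interval -0.50 to 0.72, edgeR adjusted p = 0.92), and it was -0.095 without SPF replicate 1. Between the libraries numbered 2 the log2 difference was -0.00, and between those numbered 1 it was 0.25. Ezh1 spans bases 101191115 to 101226463 of chromosome 11, on the minus strand.

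Libraries of 1 group differed among themselves in several of the genes, and across all tested genes such differences went with transcript length. In SPF, 7 of the 10 genes were higher in replicate 2 than in replicate 1, and in GF 8 of the 10 were, where 49.5% and 48.9% of all tested genes were higher. Tet2 differed by a log2 value of 0.88 between the SPF libraries and 0.48 between the GF libraries, Tet1 by 0.81 and 0.78, Dnmt1 by 0.79 and 0.52, and Dnmt3a by 0.57 and 0.50. Ezh2 differed by -0.05 and 0.02, and Uhrf1 by 0.19 and -0.72. Length did not order all of the 10. Tet3, the second longest, differed by 0.44 and 0.39, less than Dnmt1 at 5870 nt. Ezh1 (4207 nt) differed by 0.44 and 0.19, and Suz12 (4373 nt) by -0.04 and 0.05. The longest coding transcripts of Tet1, Tet3, Dnmt3a and Tet2 are 14369, 10904, 9685 and 9179 nt long, against a median of 3040 nt over tested genes, while those of Ezh2, Suv39h1 and Uhrf1 are 2787, 3116 and 3586 nt. Across 11194 tested genes, which are not independent replicates and share the same libraries, Spearman's rho between length and the difference of replicate 2 minus 1 was 0.59 in SPF and 0.53 in GF.

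With the trend of each library on transcript length removed, the fold changes of the long genes were smaller. The log2 fold change of GF minus SPF was then 0.24 for Dnmt3a, 0.21 for Tet2, 0.04 for Tet3 and 0.03 for Tet1, and 0.01 for Dnmt1 (edgeR adjusted p between 0.69 and 0.99 for this group). Uhrf1 had 0.55 and Ezh2 0.10 in the same fit, close to their values without the correction. The values for Tet1, Tet3 and Dnmt1 therefore depended on this setting by more than 1.5 times, as did those of Tet2, Dnmt3a, Ezh1 (0.02) and Suz12 (-0.20). The replicate block also gave a call for Tet2 (edgeR adjusted p = 0.037), higher in GF. With block and length correction together it called 0 of the 10, beside 1.77% of tested genes, and the adjusted p was 0.29 for Dnmt3a and 0.36 for Tet2.

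**Figure D3:**
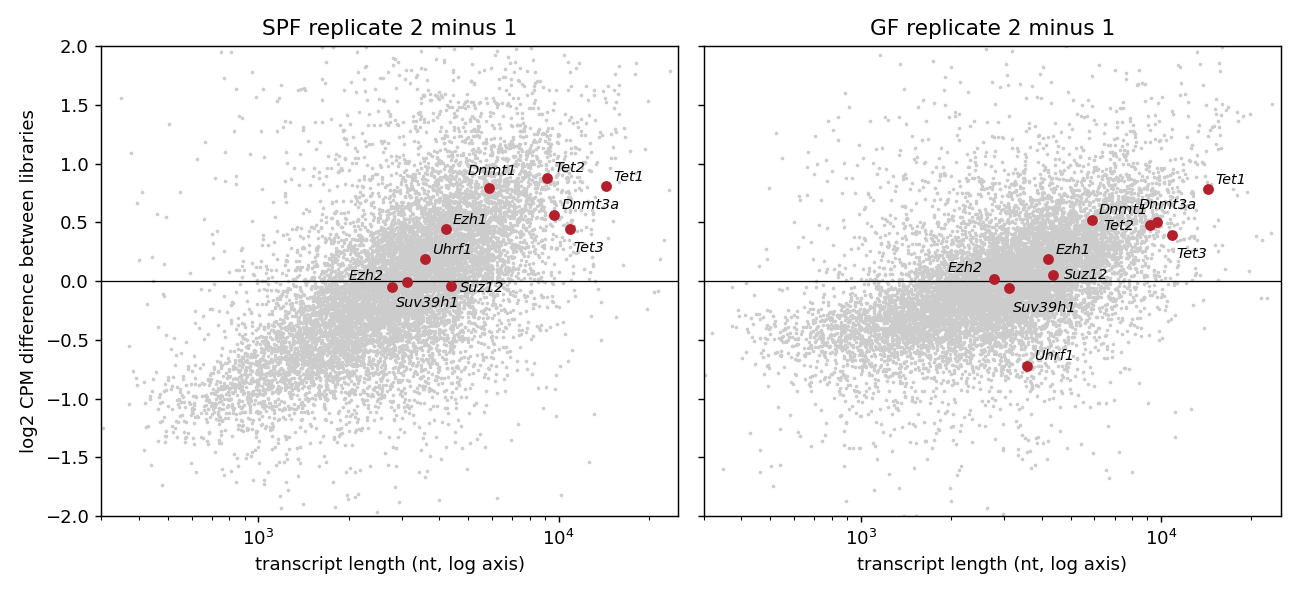
Difference in log2 CPM of replicate 2 minus replicate 1 against transcript length (log axis), in SPF (left) and GF (right), with every tested gene within the axes in grey and the 10 genes in red. The Tet genes and Dnmt3a lie among the long transcripts with positive differences in both groups, and Uhrf1 lies at 0.19 in SPF and at -0.72 in GF.

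Ratios of counts within a library need no scaling between libraries, and 3 were formed with 0.5 added to each count. Ezh2 counts were 0.337 and 0.240 of the Ezh1 counts in SPF and 0.292 and 0.260 in GF, and the groups overlapped. The mean log2 ratio was -1.82 ± 0.35 (SD, n = 2) in SPF and -1.86 ± 0.12 in GF, a difference of -0.05 (exact two-sided permutation p = 1.0). The log2 ratio of Uhrf1 to Dnmt1 was -3.82 and -4.42 in SPF and -3.17 and -4.42 in GF, a difference of 0.32 that became -0.30 without GF replicate 1 (exact permutation p = 0.67 with all libraries). In the libraries numbered 2 this ratio was nearly the same in both recipients.

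The ratio of Dnmt1 to Dnmt3a was the one of the 3 with groups that did not overlap. Dnmt1 counts were 3.12 and 3.65 times the Dnmt3a counts in SPF and 2.596 and 2.631 times in GF. The mean log2 ratio was 1.75 ± 0.16 in SPF and 1.39 ± 0.01 in GF (SD, n = 2 each), a difference of -0.37, with a range of -0.48 to -0.26 when each library was left out in turn. The exact two-sided permutation p was 0.33, which is the smallest that 2 libraries against 2 can give, and Benjamini-Hochberg adjustment over the 3 ratios gave 1.0 for each. The transcripts of the pair differ in length (5870 and 9685 nt). With each library's length trend removed, the edgeR log2 fold changes were 0.01 for Dnmt1 and 0.24 for Dnmt3a, against 0.19 and 0.58 without. From SPF replicate 1 to GF replicate 2, Dnmt1 then rose more than Dnmt3a (log2 values 0.31 and 0.09), so the groups overlapped. In the other GF and SPF pairings Dnmt3a stayed above, as between the libraries numbered 1 (0.07 and 0.16) and numbered 2 (-0.04 and 0.32). The part of length in the ratio was not tested further.

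**Figure D4:**
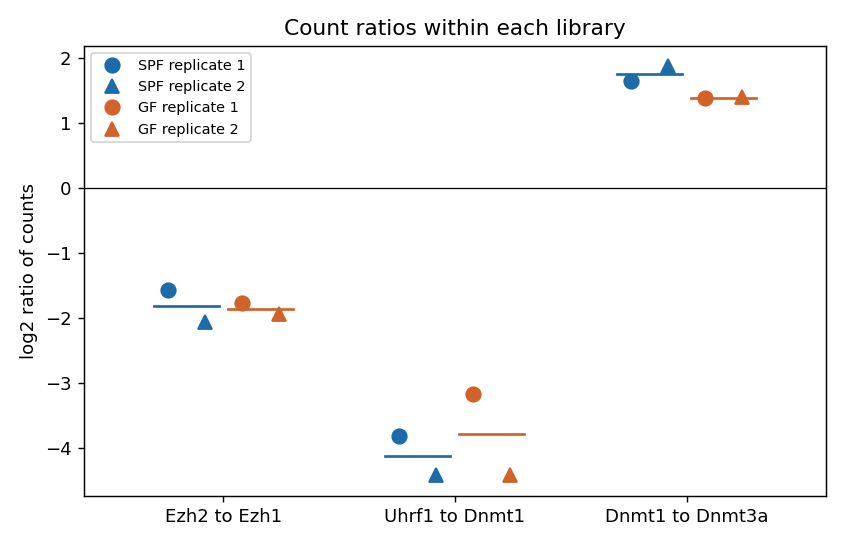
Log2 ratio of counts of 3 gene pairs in each library, with a line at the mean of each group. The Dnmt1 to Dnmt3a ratio is higher in both SPF libraries than in both GF libraries, while the other ratios overlap between groups.

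Per kilobase of transcript, Suz12 had the highest mean level over the 4 libraries, at 37.8 CPM per kb, followed by Ezh1 at 33.7 and Dnmt1 at 30.8 CPM per kb. The library ranges of these 3 overlapped. Tet3 (14.7 CPM per kb) and Ezh2 (14.1 CPM per kb) came next and overlapped as well. Suv39h1 followed at between 9.44 and 10.4 CPM per kb over the libraries, below Ezh2 in each, and then Tet2 at 6.94 and Dnmt3a at 6.34 CPM per kb, whose ranges overlapped. The range of Suv39h1 overlapped that of Tet2, which was higher in 1 of the 4 libraries. Uhrf1 stood at 3.27 and Tet1 at 0.822 CPM per kb, with separate ranges, while the range of Uhrf1 overlapped that of Dnmt3a. Ezh1 was thus above Ezh2 per kilobase in all 4 libraries, at between 27.5 and 37.4 against between 13.5 and 14.6 CPM per kb. With all annotated exons of a gene merged as its length, Dnmt1 passed Ezh1 (24.5 against 19.1 CPM per kb) and Suv39h1 passed Ezh2 (5.92 against 5.89), and the order was otherwise kept.

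The wider machinery was examined in 9 lists, which hold 89 genes beside the 10, of which 85 were tested. Of these 85 genes 0 passed the edgeR test, which called 0% of all tested genes. An unadjusted edgeR p under 0.05 was found for 0 of the 85, beside 3.22% of all tested genes. Means in GF were higher for 45 and lower for 40, where 49.7% of all tested genes were higher. The median log2 fold change was 0.05. Both GF libraries lay above both SPF libraries for 15 and below for 11, where 16.8% and 16.4% of all tested genes did.

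Among other DNA methylation writers and cofactors, the chromatin remodelling gene Hells measured 18.1 and 21.1 CPM in SPF and 25.1 and 22.3 CPM in GF, and the de novo methyltransferase gene Dnmt3b 19.4 and 29.2 against 29.4 and 32.5 CPM. Cdca7, which activates HELLS, measured 28.7 and 17.5 against 17.4 and 12.4 CPM, or -0.64 as log2 fold change (SE 0.35). Dnmt3l, a catalytically inactive partner of the de novo enzymes in germ cells, had 0 counts in all 4 libraries, which allows up to 3 counts or 0.205 to 0.262 CPM a library. In the demethylation list the Gadd45 stress genes overlapped between groups, with log2 fold changes of 0.64 for Gadd45b, 0.43 for Gadd45a and 0.21 for Gadd45g. Of 8 methyl-CpG readers 3 were higher and 5 lower in GF. The glycosylase gene Mbd4 had a log2 value of -0.29 (SE 0.26) and Mbd3, of the NuRD complex, -0.19 (SE 0.27).

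The other PRC2 genes named here were taken by smallest p, so they do not stand for the rest of the complex. The histone-binding subunit gene Rbbp4 measured 362.5 CPM in SPF replicate 1 and between 183.4 and 226.5 CPM in the other libraries, and Eed, which binds the finished mark, 116.0 CPM there and between 80.8 and 86.0 CPM elsewhere. Jarid2, an accessory subunit, measured 57.7 and 67.7 CPM in SPF against 74.6 and 83.2 CPM in GF. Of the 11 PRC2 genes 5 were higher and 6 lower in GF, and their median was -0.08 (log2 fold change). PRC1, the complex that ubiquitinates histone H2A, had 10 of 21 higher and a median of -0.08. Its genes of smallest p were Pcgf2 (31.8 and 31.3 against 39.6 and 45.2 CPM), Yaf2 (log2 fold change -0.58, SE 0.31) and Phc1 (0.43, SE 0.26).

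**Figure D5:**
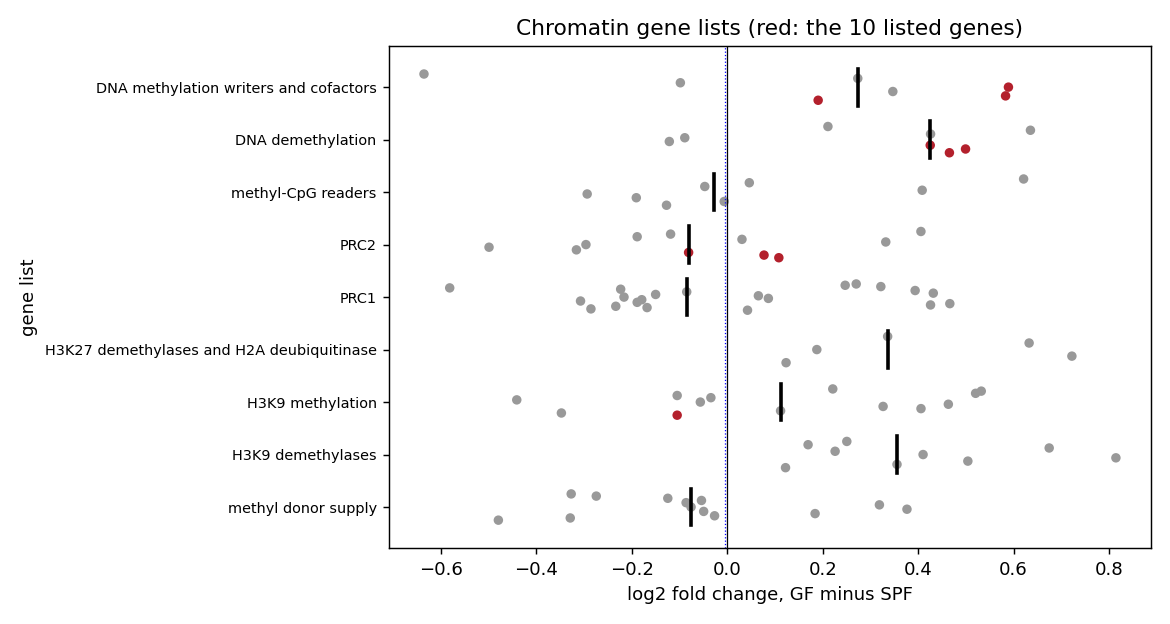
Log2 fold change of GF minus SPF for every tested gene of 9 chromatin lists, with the list median as a black bar, the 10 genes in red and the median of all tested genes as a dotted line at -0.00. List medians run from -0.08 for PRC1, PRC2 and methyl donor supply to 0.43 for DNA demethylation, and no gene passed the edgeR test.

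In the lists of enzymes that remove repressive histone marks and their partners, 0 genes passed the test. Means were higher in GF for 5 of 5 in the H3K27 demethylase and H2A deubiquitinase list and 9 of 9 among H3K9 demethylases, where 49.7% of all tested genes were. Both GF libraries lay above both SPF libraries for 1 and 3 of these, beside 16.8% of all tested genes, and the groups overlapped for 4 and 6. The list medians of log2 fold change were 0.34 and 0.36. Kdm4a, an H3K9 and H3K36 demethylase, measured 56.2 and 106.6 CPM in SPF and 132.5 and 154.0 CPM in GF, a log2 fold change of 0.81 (SE 0.35), with the smallest unadjusted p of the 85 (0.064). Kdm3b had 0.50 (SE 0.32), and Kdm4d, at under 3 CPM in all libraries, 0.67 (SE 0.45). In the first list Asxl1, a partner of the H2A deubiquitinase BAP1, measured 121.4 and 182.5 against 218.5 and 252.8 CPM. Kdm6b, the inducible H3K27 demethylase gene, had 0.72 (SE 0.38) and Asxl2 0.34 (SE 0.40), both with overlapping groups. The median transcript was 6654 nt long in the first list and 4663 nt in the other, and replicate 2 was higher in each group, with median log2 differences of 0.63 in SPF and 0.33 in GF for the first and 0.51 and 0.22 for the other. The part of length in these values was not tested.

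The H3K9 methylation list had 7 of 13 higher in GF and a median log2 fold change of 0.11. Ehmt2 (G9a), the main euchromatic H3K9 methyltransferase, measured 154.9 and 221.1 CPM in SPF and 242.8 and 275.7 CPM in GF, and its zinc finger partner Wiz 37.3 and 52.3 against 59.4 and 70.3 CPM. Cbx3, which encodes a heterochromatin protein that binds the mark, had -0.44 (SE 0.31). Among genes of methyl donor supply, means in GF were higher for 3 of 13 and lower for 10. Mat2a makes S-adenosylmethionine, the methyl donor of the DNA and histone methyltransferases. It measured 269.6 and 222.3 CPM in SPF and 180.3 and 172.4 CPM in GF, a log2 fold change of -0.48 (SE 0.21, edgeR adjusted p = 0.86). Mat2b, its regulatory subunit gene, had -0.33 (SE 0.27), and the mitochondrial folate enzyme gene Mthfd2 -0.27 (SE 0.23).

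Total counts ran from 11544960 in SPF replicate 1 to 14431533 in GF replicate 2, and 7 CD8 T cell genes in the table, led by Thy1, summed to between 4980.6 and 6701.6 CPM. In bulk libraries fewer cells of a type and less RNA per cell cannot be told apart. Summed B cell markers were 122.8 and 147.3 CPM in SPF and GF replicate 1 and 29.7 and 32.2 CPM in the libraries numbered 2, led by Cd79b, and Ms4a1 and Pax5 had 0 counts in the latter. Markers of macrophages, monocytes and dendritic cells summed to between 495.1 and 1135.0 CPM. Most of this sum was Itgax, an integrin gene that activated CD8 T cells also express. Itgam ranged from 1019 to 1630 counts per library and Xcr1 from 189 to 277. Lyz2 was higher in the libraries numbered 1 (SPF 48, GF 65) than in those numbered 2 (SPF 8, GF 0). Csf1r, Emr1, Cd14, Clec9a, Flt3 and Siglech had at most 7 counts in any library, and Fcgr1 had 0 counts in all 4 libraries. CD4 and regulatory T cell markers, led by Zbtb7b, summed to between 66.4 and 107.6 CPM. Most of this sum was Zbtb7b (between 750 and 1110 counts) and Cd40lg (between 214 and 406 counts). Cd4 had at most 6 counts and Foxp3 at most 17 in any library. NK cell markers, led by Gzma, summed to between 254.8 and 391.3 CPM. Of these, Klrb1c had between 413 and 577 counts, Eomes between 130 and 230, Ncr1 at most 3, and Klra8 and Klra4 0. Erythroid, platelet and stromal markers, led by Pecam1, summed to between 85.3 and 106.6 CPM, with Hbb-b1, Hba-a1, Pf4 and Col3a1 at 0 counts. The part of other cells in the values of the 10 genes was not tested.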

How the data were processed

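The authors deposited 1 table of read counts per gene, whole numbers that are not normalized, with 1 column per library. CASAVA, TopHat, Picard, Subread, featureCounts and edgeR are named, with mm10 as build, per the submitters' processing notes. Their settings were not given in the sources used here. Values of overlapping genes are uncertain.

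The test of GF against SPF was that of edgeR 4.0.16 (R 4.3.3, quasi-likelihood, no covariate) on counts with TMM scaling and the filterByExpr filter, which kept 11271 genes, with Benjamini-Hochberg adjustment over all tested genes and a threshold of 0.05. SEs were derived from F, and 95% intervals use the fit's degrees of freedom. Differences between single libraries use log2 CPM with a prior count of 2. Counts of replicates differed beyond sampling noise (chi-square per degree of freedom of 89.2 in SPF and 43.9 in GF). DESeq2 1.42.0, the exact test, other scalings, no filter, each library left out, a replicate block, and removal of each library's trend on transcript length (lowess, span 0.3) were alternatives. Lengths came from GENCODE M21 (99.3% of tested genes matched), as the longest coding transcript. Promoters came from RefSeq. Ratios used exact permutation tests in scipy 1.17.1. The fits were also run on simulated counts that carried no replicate effect, so that run does not measure their error in these data. Figures were drawn with matplotlib 3.10.9.

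The 10 genes and the lists were chosen with earlier results of these data known. The text names all 10 genes, up to 3 other genes of each chromatin list by smallest p, and the most abundant gene of each other list.
Genes at 0 counts, and further markers of macrophages, monocytes, dendritic cells, CD4 and regulatory T cells and NK cells, were named after their values were seen. A gene that this rule names is not reported here.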

Additional observations from a re-analysis of the deposited data

How the results depend on the processing

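No label says that equal replicate numbers mark a shared mouse, day or batch, so libraries were treated as unpaired. Across genes, the difference of replicate 2 minus 1 in SPF correlated with that in GF (r = 0.71), as a hint from the data and not the design. With the replicate block, edgeR called 1206 genes and 2 of the 10, Dnmt3a (log2 fold change 0.59, adjusted p = 0.022) and Tet2 (0.54, adjusted p = 0.037), where 10.7% of tested genes passed. With the length trend removed as well, 200 genes and 0 of the 10 were called. DESeq2 and the edgeR exact test called 9 genes each, and 0 of the 10. Leaving out each library in turn gave between 0 and 1327 genes and between 0 and 1 of the 10. The log2 fold change then ranged from -0.15 (-0.10 without GF replicate 2) to 0.63 for Dnmt1 and from -0.095 to 0.34 for Ezh1. The ratio of Ezh2 to Ezh1 ranged from -0.29 to 0.20 and that of Uhrf1 to Dnmt1 from -0.30 to 0.95. The cause was not tested. Directions of the other 8 genes were kept in the scaling, filter, test, block, length and leave-one-out alternatives, and that of the Dnmt1 to Dnmt3a ratio in those run on ratios, which were another pseudocount, the block and leave-one-out. The lowest counts of the 10 were 82 for Tet1 and 100 for Uhrf1, both in SPF replicate 1, with counting intervals of 5.70 to 8.89 and 7.11 to 10.6 CPM.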
